A study of Homo sapiens with 40 samples.

Results

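To describe the chromatin of the replication licensing genes in senescent beta cells, H3K27ac and CTCF were examined at MCM2, MCM3, MCM4, MCM5, MCM6, MCM7, MCM10, CDC6, CDT1 and GMNN, 10 of the 20020 protein-coding genes of the annotation. Every peak was taken that lay within 2 kb of one of their start sites (a promoter peak), in their gene bodies, or nearest to them within 100 kb. This gave 15 of 51489 H3K27ac peaks and 13 of 51457 CTCF peaks. The cells were EndoC-βH3, a single human beta cell line of genotype WT that carries excisable immortalizing transgenes and an inducible Cre recombinase. These transgenes are hTERT and the Large T-antigen, and the study states that the latter inhibits Rb and p53. Senescent cells had been treated with 4-hydroxytamoxifen (4-OHT), which turns on the recombinase, for 3 weeks, and non-senescent cells were the untreated control. Senescence, exposure to 4-OHT and removal of the T-antigen therefore cannot be told apart here. For each of H3K27ac and CTCF, 3 senescent and 3 non-senescent ChIP-seq libraries had been compared, and Rb had been profiled in 2 and 2. No source stated that the libraries came from separate cultures, so the tests measure the spread between libraries, which may be technical.

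Licensing prepares an origin of replication for a single use in each cell cycle. The origin recognition complex recruits CDC6, and CDC6 together with CDT1 loads the MCM2 to MCM7 hexamer, the core of the replicative helicase, onto DNA in G1. Geminin (GMNN) binds CDT1 and blocks a further round of loading in S and G2, while MCM10 helps to activate the loaded helicase. Many of these genes are transcribed under E2F factors, which the retinoblastoma protein Rb restrains, and their products decline in cells that leave the cell cycle. Acetylation of histone H3 at lysine 27 (H3K27ac) marks promoters and enhancers in use. CTCF binds DNA through its zinc fingers and anchors chromatin loops.

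The promoter sequences of 8 of the 10 genes were available from RefSeq (GRCh38.p14), and MCM4 and MCM5 had no entry. These windows ran from 250 bases before to 50 bases after a start site. They were searched on both strands for 4 E2F motifs, TTTGGCGC, TTTCCCGC, TTTGCCGC and TTTCGCGC, some of which overlap each other on opposite strands. A match was found for 7 of the 8 genes, CDC6, CDT1, GMNN, MCM2, MCM3, MCM6 and MCM7, and none for MCM10. The same letters were found in at least 1 window of 3.99% of all 27305 genes in the table (3.31% of 35116 windows), and for 12 of the 28 other origin genes, described further on, that had an entry. The shares of all genes given here were not matched for GC content, gene type or the presence of an H3K27ac peak. The windows below, from 180 bases before to 30 after the start site, show how the matches lie in the promoters with the largest changes and in that of MCM7, which changed least. Capitals mark the E2F matches.
CDC6 (chr17:40287699-40287908, + strand): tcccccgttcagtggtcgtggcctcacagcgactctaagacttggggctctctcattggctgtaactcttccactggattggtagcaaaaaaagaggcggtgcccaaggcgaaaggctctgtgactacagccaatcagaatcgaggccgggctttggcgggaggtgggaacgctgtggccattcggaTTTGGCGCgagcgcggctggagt
CDT1 (chr16:88803609-88803818, + strand): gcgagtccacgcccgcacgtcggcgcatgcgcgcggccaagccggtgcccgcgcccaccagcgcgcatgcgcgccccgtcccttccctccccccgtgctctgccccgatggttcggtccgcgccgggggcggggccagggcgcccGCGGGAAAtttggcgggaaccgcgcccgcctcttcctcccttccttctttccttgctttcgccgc
MCM6 (chr2:135876414-135876623, - strand): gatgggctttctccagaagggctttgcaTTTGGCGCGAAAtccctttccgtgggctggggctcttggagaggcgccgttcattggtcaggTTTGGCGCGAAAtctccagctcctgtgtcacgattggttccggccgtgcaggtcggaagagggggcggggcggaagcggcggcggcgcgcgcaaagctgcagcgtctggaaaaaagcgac
MCM2 (chr3:127598231-127598440, + strand): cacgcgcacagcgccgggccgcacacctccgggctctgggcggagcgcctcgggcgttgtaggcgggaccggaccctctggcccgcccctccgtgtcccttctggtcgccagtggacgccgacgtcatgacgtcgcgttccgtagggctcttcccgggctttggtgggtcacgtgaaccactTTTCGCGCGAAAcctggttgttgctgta
MCM3 (chr6:52284713-52284922, - strand): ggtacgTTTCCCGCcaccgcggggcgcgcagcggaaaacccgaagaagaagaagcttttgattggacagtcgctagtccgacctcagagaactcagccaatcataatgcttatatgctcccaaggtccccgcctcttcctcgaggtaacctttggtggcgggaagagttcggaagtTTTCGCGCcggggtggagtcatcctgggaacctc
MCM7 (chr7:100101368-100101577, - strand): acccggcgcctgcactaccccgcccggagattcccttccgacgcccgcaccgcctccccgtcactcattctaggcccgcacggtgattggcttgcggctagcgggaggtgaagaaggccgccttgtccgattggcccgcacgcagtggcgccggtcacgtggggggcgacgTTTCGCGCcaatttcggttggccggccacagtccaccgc
MCM6 held 2 stretches in which matches of different motifs on opposite strands overlapped, with first bases 152 and 90 bases before the start site. The match of CDC6 began 8 bases and that of MCM2, where the same motif overlapped itself on the other strand, 3 bases into the transcript, and MCM7 held a match 9 bases before its start site and a further one outside the printed window. A match was therefore present both where H3K27ac fell most and at MCM7, where it was not called. Letters of the cell cycle homology region, TTTGAA, were found in 0 of the 8 genes and in 18.2% of all genes in the table. The CCAAT box, CCAAT, was found in 6 of the 8, all but CDT1 and MCM2, and in 39.7% of all genes in the table.

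H3K27ac was lower in senescent cells at all 10 promoters. Each gene had 1 promoter peak. A peak was called lost or gained if it passed an adjusted p of 0.05 and changed more than 1.5-fold in the authors' deposited DESeq2 table. By this rule 8 of the 10 promoter peaks were lost and 0 were gained, whereas 9.81% of all 14007 promoter peaks were lost and 4.53% were gained. At an unadjusted p under 0.05, 10 of the 10 were lower and 0 higher. The lost count was 3 with a fold change above 2 and 5 when the test was made against a change of 1.5-fold. Shares of all promoter peaks under these other rules were not computed, so the counts have no background to be set against. The median log2 fold change of the 10 was -0.94, and that of all promoter peaks was 0.03. GMNN and MCM7 were the 2 that were not called, although both had an adjusted p under 0.05. Levels per library were not in the files used here, so the levels below are those implied for each state by the deposited mean over the 6 libraries and the fold change, in normalized counts per kb of peak. They carry no error of their own, and the error stands with the fold change. In bulk chromatin, loss of the mark in part of the cells and a lower level in every cell cannot be told apart.

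**Figure D1:**
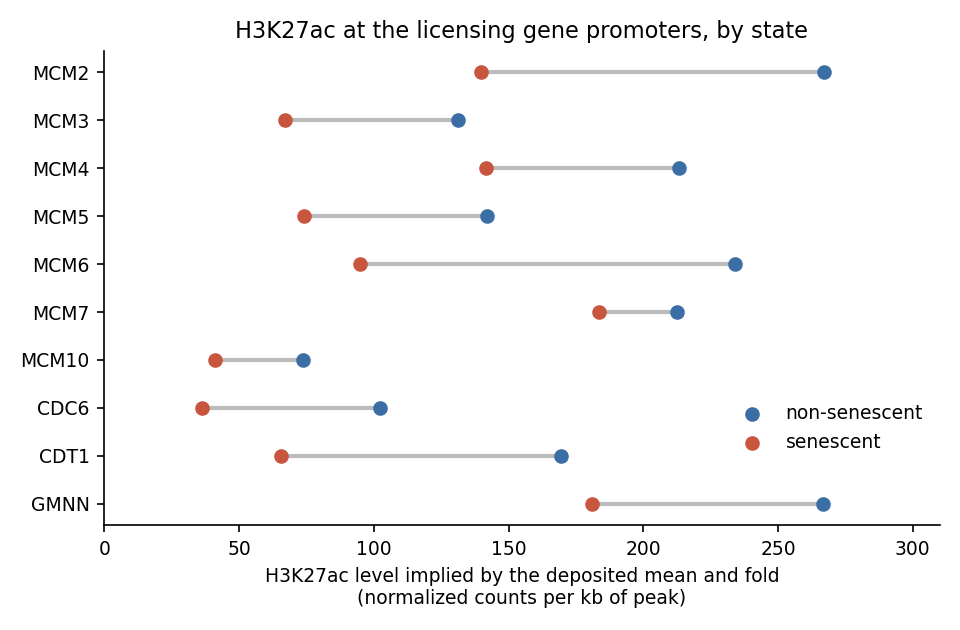
H3K27ac level at the promoter peak of each gene in non-senescent (blue) and senescent (red) cells, in normalized counts per kb as implied by the deposited mean and fold change. The senescent value is the lower of the pair for every gene, with the shortest line at MCM7 (212.3 to 183.4) and the longest at MCM6 (234.0 to 94.98).

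The lowest values were those of the loading factors. At CDC6, the ATPase that recruits the helicase to origins, the promoter peak (chr17:40287405-40289408, over exons 1 and 2) went from 102.3 to 36.3 normalized counts per kb. This was a log2 fold change of -1.50 (SE 0.18, adjusted p = 1.22e-14), the lowest of the 10, and lower than at all but 1.22% of promoter peaks. CDT1, its partner in loading, went from 169.3 to 65.6 per kb over its start site and exons 1 to 5 (chr16:88802722-88805932). Its log2 fold change was -1.37 (SE 0.12, adjusted p = 1.49e-28). The senescent level of CDC6 was 35.5% of the non-senescent level, and that of CDT1 was 38.7%.

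All 6 helicase subunits were lower, and 5 of them were lost. The lowest was MCM6, which fell from 234.0 to 94.98 per kb (log2 fold change -1.30, SE 0.12, adjusted p = 4.34e-27). MCM3, MCM5 and MCM2 fell by similar amounts, to 50.9%, 52.2% and 52.3% of the non-senescent level. Their log2 fold changes were -0.97 (SE 0.13) for MCM3, -0.94 (SE 0.11) for MCM5 and -0.93 (SE 0.10) for MCM2. MCM4 lay just past the fold limit, at 66.4% of the non-senescent level (log2 fold change -0.59, SE 0.10, 95% interval -0.78 to -0.40). MCM7 stood apart from the other subunits, since its peak went only from 212.3 to 183.4 per kb. Its log2 fold change was -0.21 (SE 0.08, adjusted p = 0.0171). The MCM4 and MCM7 log2 fold changes differed by 0.38 (95% interval 0.14 to 0.62), and those of MCM6 and MCM4 by 0.71 (0.41 to 1.01).

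The activator MCM10 was lost and the inhibitor GMNN was not called. MCM10, which had the smallest promoter peak of the 10 with a mean of 78.3 counts, went from 73.6 to 41.1 per kb. Its log2 fold change was -0.84 (SE 0.25, adjusted p = 0.00271), with a 95% interval from -1.32 to -0.36. GMNN, the inhibitor of CDT1, had 266.7 per kb in non-senescent and 180.8 in senescent cells. Its log2 fold change of -0.56 (SE 0.08, adjusted p = 4.75e-10) lay just short of the fold limit, which MCM4 just passed. The GMNN value was 0.81 above that of CDT1 (95% interval 0.52 to 1.09) and 0.93 above that of CDC6 (0.54 to 1.33).

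In the order of log2 fold change, from CDC6 through CDT1, MCM6, MCM3, MCM5, MCM2, MCM10, MCM4 and GMNN to MCM7, 1 of the 9 steps between neighbours had a 95% interval above 0. That step, from GMNN to MCM7, was 0.35 (0.13 to 0.57). The other 8 intervals held 0. In non-senescent cells MCM2 and GMNN had the highest levels, at 267.2 and 266.7 per kb, whereas in senescent cells MCM7 and GMNN did, at 183.4 and 180.8. The 3 promoters with the smallest changes, MCM7, GMNN and MCM4, were also those with the highest mean counts, 1119, 783 and 639. Promoter peaks with high means were seldom lost in the whole table: with all promoter peaks split by mean count into 4 groups of equal size, the share was 20.5% in the lowest group, which held CDC6 and MCM10, then 12.0%, 4.80% and, in the group of MCM7, 1.97%. In the group before it, MCM2 and MCM4 were lost and GMNN was not.

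**Figure D2:**
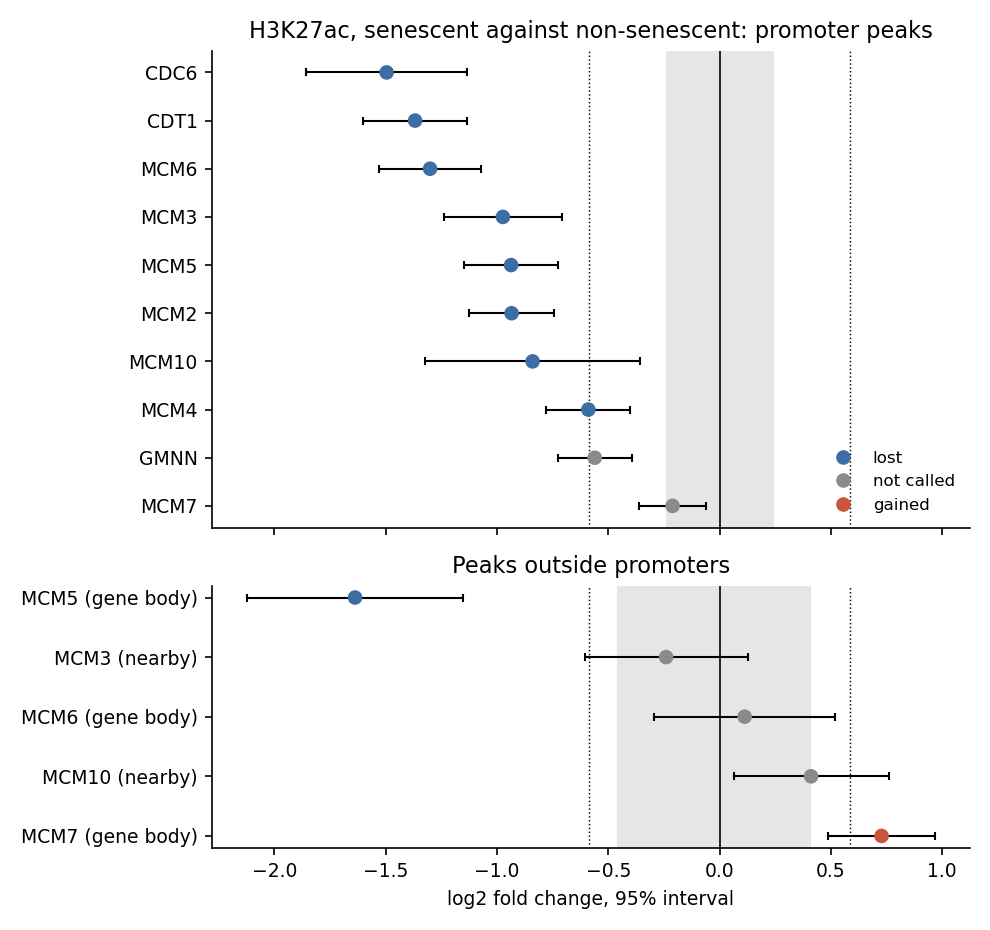
Log2 fold change of H3K27ac, senescent over non-senescent, with 95% intervals from the deposited standard errors, for the 10 promoter peaks (top) and the 5 peaks outside promoters (bottom). Grey bands hold the middle 50% of all peaks of that kind, dotted lines are the 1.5-fold limits, and the promoter values run from -1.50 at CDC6 to -0.21 at MCM7.

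For 3 of the 10 genes the promoter peak also covered or neighboured the start of another gene. The MCM4 peak was shared with PRKDC, the catalytic subunit of DNA-dependent protein kinase, which starts 805 bp away on the other strand. The MCM7 peak was shared with AP4M1, an adaptor complex subunit that starts 246 bp away on the other strand, and the MCM2 peak with a transcript of TPRA1. In these peaks the signal of the 2 genes cannot be told apart. None of the 10 promoter peaks overlapped the deposited enhancer lists, which by the study's definition leave out promoters. Promoter marks of cell type genes were also read: 14 of 14 beta cell genes had an H3K27ac promoter peak, with 49.5 (MAFA) to 536.8 (PAX6) counts per kb. Such a peak was present at 13059 of the 20020 protein-coding genes, so its presence alone says little about cell type. Of 8 genes of other cell types, 6 had none, among them GCG and PTPRC, and KRT19 and SST had 122.3 and 50.3 per kb. The KRT19 level was above those of the beta cell genes IAPP (64.5) and MAFA.

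Outside promoters, 1 of the 5 H3K27ac peaks was lost and 1 was gained. Of all 37482 peaks outside promoters 14.4% were lost and 11.3% were gained. The lost peak lay in the body of MCM5 over exons 7 to 9 (chr22:35409787-35414034) and was in the deposited list of non-senescent enhancers. It went from 122.1 to 39.3 per kb, a log2 fold change of -1.64 (SE 0.25, adjusted p = 6.62e-10). Its standard error was larger than at 99.9% of peaks of similar mean count, whose median was 0.12, so its libraries scattered more than usual. The gained peak lay over exons 11 to 15 of MCM7 (chr7:100091913-100096322) and rose from 54.5 to 90.2 per kb (log2 fold change 0.73, SE 0.12, adjusted p = 4.08e-08). Its nearest protein-coding start site was that of COPS6, a subunit of the COP9 signalosome. The MCM7 gene therefore held both the promoter with the smallest change and a gained peak in its last exons. The peaks upstream of MCM3 (-0.24, SE 0.19) and MCM10 (0.41, SE 0.18, adjusted p = 0.0525) and in exon 16 of MCM6 (0.11, SE 0.21) did not pass the test.

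CTCF was called gained at 3 of the 13 peaks of these genes and lost at none, with 9 values above 0 and 4 below. The limit was an adjusted p of 0.2, with the same fold limit. Of the 13 peaks, 11 had an adjusted p in the deposited table, and of all 39485 such peaks 2.99% were gained and 4.28% were lost. Next to a lost share of 4.28%, 0 lost among 11 peaks says little about these genes. The study's methods describe a motif filter on CTCF peaks before the test, and the deposited table may hold peaks from before it, so these shares may rest on a different set of peaks from the study's. At an unadjusted p under 0.05, 0 of the 13 were lower and 3 were higher, and the share of all CTCF peaks at that limit was not computed. None of the 3 gained peaks passed a test against a change of 1.5-fold. MCM2, MCM4, MCM7 and CDT1 had no CTCF peak by the same rule. CDC6 had 4, and 2 of the 3 gained peaks lay in its gene body. The first (chr17:40290138-40291762) covered coding exons 3 and 4, with its centre 3071 bp downstream of the main start site, and counted as a promoter peak by an alternative start site 946 bp away. It rose from 58.1 to 124.9 normalized counts per kb, a log2 fold change of 1.10 (SE 0.19, adjusted p = 8.54e-06). The second (chr17:40302257-40303934) lay over exon 12, which holds the 3′ untranslated region, and rose from 61.4 to 130.0 per kb. Its log2 fold change was 1.08 (SE 0.18, adjusted p = 1.57e-06). Senescent levels at these sites were thus 215.1% and 211.9% of the non-senescent levels. Between them, a weaker peak over exon 11 (chr17:40301212-40301803) had a log2 fold change of 0.07 (SE 0.43), at a mean of 24.8 counts.

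**Figure D3:**
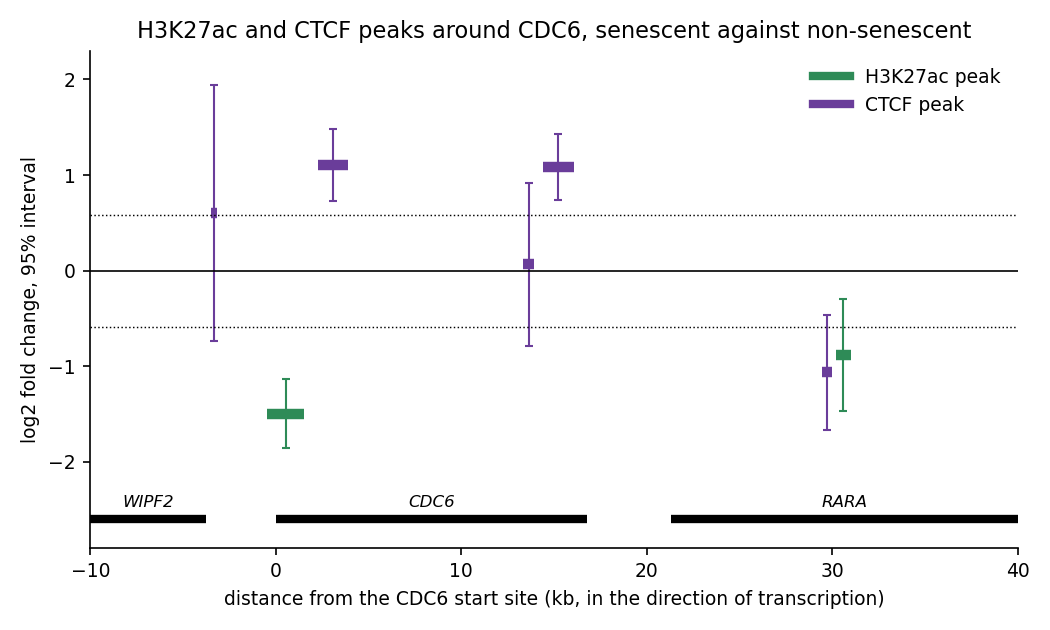
Log2 fold change of each H3K27ac (green) and CTCF (purple) peak against its distance from the CDC6 start site in kb, with 95% intervals; horizontal bars span the peaks and black bars the genes. H3K27ac fell at the start of CDC6 (-1.50), CTCF rose at 2 peaks within the gene (1.10 and 1.08), and both marks fell at a pair of peaks in RARA.

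The third gained peak lay in intron 18 of MCM10 (chr10:13205907-13207410) and was nearest to the start of UCMA. It went from 63.2 to 107.1 per kb (log2 fold change 0.76, SE 0.19, adjusted p = 0.0093). The strongest CTCF peaks of the genes did not pass the test. These were the peak at the 3′ end of MCM3 (mean 364.1 counts, log2 fold change -0.08, SE 0.13) and that at the MCM10 start site (284.0 counts, -0.08, SE 0.13). Their 95% intervals, -0.34 to 0.17 and -0.35 to 0.18, held no change of 1.5-fold. At CDC6, MCM10 and MCM3, promoter H3K27ac fell while the CTCF value at or near the start site was 1.10, -0.08 and 0.27 or 0.23. The strongest peak outside the genes and their promoters, 31.0 kb downstream of the MCM5 start site, had a log2 fold change of -0.36 (SE 0.21). The other peaks, near or in MCM3, MCM6, CDC6 and GMNN, had 95% intervals that held 0. Around CDC6, 12 CTCF and 7 H3K27ac peaks lay within 100 kb of the start site. Apart from the CDC6 peaks, the test was passed there by 1 CTCF peak (-1.07, SE 0.31) and 1 H3K27ac peak (-0.88, SE 0.30), both lost and about 30 kb downstream in RARA, the retinoic acid receptor alpha gene.

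**Figure D4:**
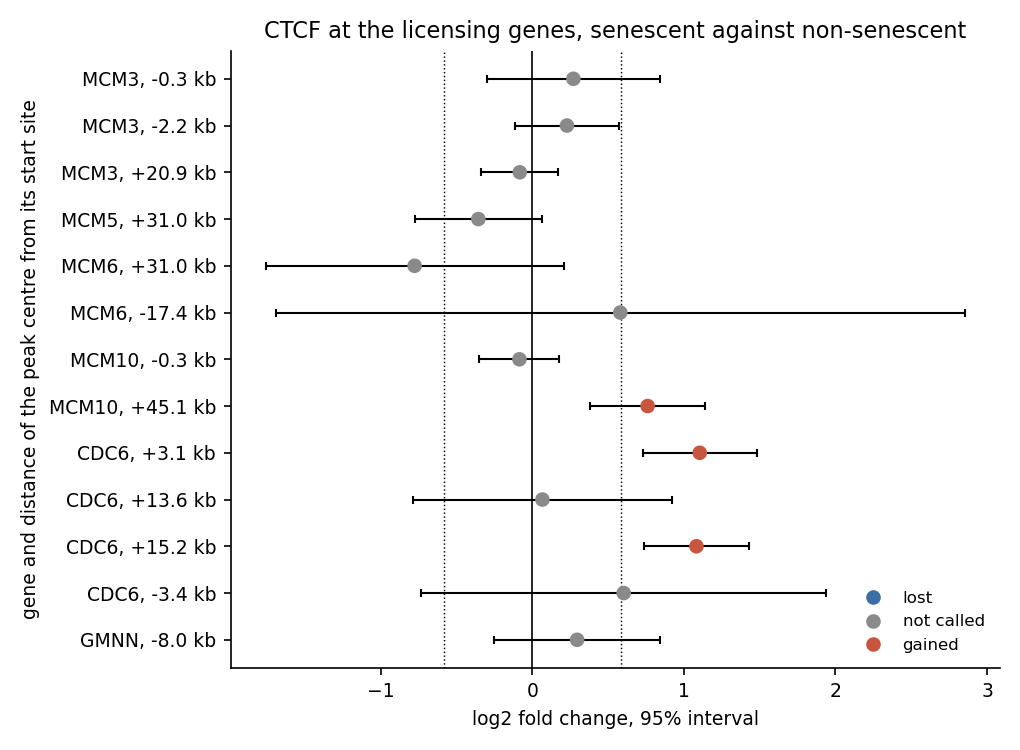
Log2 fold change of CTCF, senescent over non-senescent, with 95% intervals, for all 13 peaks of the licensing genes, each named by its gene and the distance of its centre from the start site. The 3 gained peaks (red), at MCM10 (0.76) and CDC6 (1.10 and 1.08), are those whose intervals lie above 0.

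CTCF fold changes over the whole table moved with base composition: with peaks split by GC content into 10 groups of equal size, the median was 0.22 in the lowest group and -0.31 in the highest. The GC contents of the 3 gained peaks were 40.9% and 43.6% at CDC6 and 44.8% at MCM10. After the median of each group was subtracted, their log2 fold changes were 0.96, 0.99 and 0.72, and all 3 still passed the test. Allowing 1 mismatch on either strand, 8 of the 13 peaks held the core of the CTCF motif, as did 47.2% of all CTCF peaks and 51.0% of gained ones. The sites of the 3 gained peaks are shown first, followed by those of 4 peaks that were not called. The site in the MCM3 promoter peak over exon 1, also not called, is left out. Each site shown is 30 bases long, is written along the strand of the motif and has the 12-base core in capitals.
CDC6, exons 3 and 4 (chr17:40290886-40290915, - strand): aaatattggTCACCAGATGGCaccactgat
CDC6, exon 12 (chr17:40303168-40303197, + strand): gtgactgagACACCAGAGGGCacccttata
MCM10, intron 18 (chr10:13206731-13206760, + strand): gcctttcagCCTCCAGATGGCactgtgatt
CDC6, exon 11 (chr17:40301491-40301520, + strand): ctgtcgcaaACAGCAGGTGGCggctgtgga
MCM3, 3′ end (chr6:52263896-52263925, - strand): agcaaactaCCACAAGGTGGCagcagcctg
MCM10, promoter (chr10:13161342-13161371, + strand): aacttcccgGCACCAGGGGGCgccagacac
GMNN, upstream (chr6:24766875-24766904, - strand): ttgtactacCCACTAGGTGGCaatgctatc
The core of the first CDC6 site lay in an intron on the strand opposite to the gene, and that of the second in the untranslated part of exon 12 on the strand of the gene. Only the GMNN site, 8.0 kb upstream of the start, matched the core with 0 mismatches, and its peak (log2 fold change 0.30, SE 0.28) was not called. No core was found in the peaks of MCM5 and MCM6, the second MCM3 promoter peak or the peak upstream of CDC6.

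Regions where Rb binding was stronger in senescent cells numbered 2435, and 1 of them (chr16:88803757-88803908, 152 bp) covered the start site of CDT1. No other licensing gene had such a region within 2 kb of a start site, and 1.57% of all protein-coding genes did. Within 100 kb of the genes there were 2 more, 19.9 kb from the MCM7 start site and nearest to ZNF3, and 47.4 kb from that of MCM4 and nearest to UBE2V2. The list holds positions only and leaves out Rb binding common to both states. Per the study's methods, its regions passed a limit on p without adjustment, from 2 libraries of each state.

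The other genes of origin recognition, firing and licensing control were described by a list of 33. Of these, 32 had an H3K27ac promoter peak, 38 peaks in all, of which 5 were lost and 1 was gained, next to 9.81% and 4.53% of all promoter peaks. Their median log2 fold change was -0.13. All 5 lost peaks belonged to the 13 genes that fire the licensed origin. At their main peaks 4 of these 13 were lost and 9 were not called, of which 2 had values above 0. TICRR, a scaffold for helicase activation, fell by 1.72 on the log2 scale (SE 0.22, adjusted p = 4.30e-13). GINS4 and GINS2, subunits of the GINS complex that joins the active helicase, had -1.26 (SE 0.21) and -0.93 (SE 0.17), and CDC7, the kinase that phosphorylates the MCM hexamer, had -0.83 (SE 0.09). GINS1 was lost only at the weaker of its 2 peaks (-1.70, SE 0.26, mean 81.7 counts), and its main peak, shared with ABHD12, was at -0.05 (SE 0.09). The lost peaks of TICRR, GINS4 and GINS2 had means of 93.6, 113 and 182 counts. By mean count these and GINS1 fell in groups where 20.5% or 12.0% of all promoter peaks were lost, and CDC7 (771) where 4.80% were. The main peaks of CDT1 turnover genes had a median mean of 1127, in the group with 1.97% lost. A difference between roles was not tested. None of the 8 origin recognition genes was called (1 lower and 2 higher at an unadjusted p under 0.05). Their main peaks ran from -0.18 at ORC1, the largest subunit, to 0.41 at ORC5, with a median of -0.02. All of these peaks except those of ORC2 and ORC5 were shared with another gene, such as PRPF38A at ORC1. The signals of the genes in a shared peak cannot be told apart. The 6 genes of CDT1 turnover were not called either (1 lower and 2 higher at an unadjusted p under 0.05), with a median of 0.11. Among them DTL, which targets CDT1 to its ubiquitin ligase, was at -0.42 (SE 0.09), and PCNA, the sliding clamp, had 0.40 (SE 0.07) at its main peak and -0.32 (SE 0.08) at the weaker one. Of the main peaks of the turnover genes, only that of CUL4B was not shared with another gene. The 4 MCM relatives, 0 of them called, ran from -0.54 at MCM8 to -0.14 at MCM9. Of these, 3 were lower and 0 higher at an unadjusted p under 0.05. Shares of all promoter peaks at an unadjusted p were not computed. The gained peak was that of GMNC, a relative of geminin that acts in multiciliated cells (0.60, SE 0.15, adjusted p = 0.000349), which was not called after GC centring. For CTCF, these genes had 24 promoter peaks, of which 6 had no adjusted p and could not be called. Of the other 18, 1 was lost, at MCIDAS (-0.59, SE 0.22, adjusted p = 0.0927), and 0 were gained, next to 5.71% and 0.63% of all 8567 CTCF promoter peaks with an adjusted p. At an unadjusted p under 0.05, 3 of the 24 were lower and 1 was higher, and the share of all CTCF promoter peaks at that limit was not computed.

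**Figure D5:**
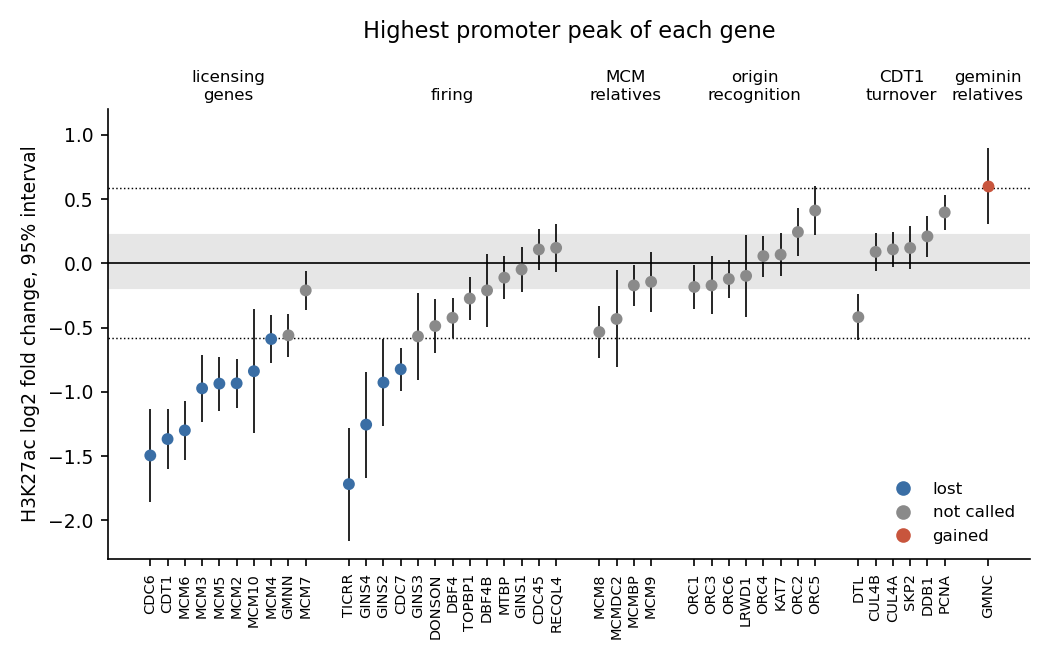
H3K27ac log2 fold change, senescent over non-senescent, with 95% intervals, at the promoter peak with the highest mean count of each licensing gene and each other origin gene, by role; the grey band holds the middle 50% of all genes. The licensing genes run from -1.50 to -0.21, the firing genes from -1.72 (TICRR) to 0.12 (RECQL4), and the origin recognition genes from -0.18 to 0.41.

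A pattern across both marks could be given for 3 of the 10 genes, CDC6, MCM3 and MCM10, whose promoters had peaks of both. Their median log2 fold changes at the peak with the highest mean were -0.97 for H3K27ac and 0.23 for CTCF. Both medians were the values of MCM3. CDC6 had -1.50 and 1.10, and MCM10 had -0.84 and -0.08, so the 3 genes shared no CTCF change. The genes named next are therefore those nearest to MCM3. Among 7792 genes with both peaks, EFCAB10 (-0.96 and 0.27), DSEL (-0.93 and 0.24) and PIR (-0.93 and 0.19) lay nearest to these medians by Euclidean distance in log2 units. The standard errors at these 3 genes ran from 0.14 to 0.25, more than their distances of 0.042 to 0.053, so their order has no weight.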

How the data were processed

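The 40 ChIP-seq and input libraries of EndoC-βH3 cells were placed in groups by the antibody and the treatment that their labels name. The members and gene lists were chosen with earlier results of these data known. Per the study's methods and the submitters' processing notes, the authors aligned reads to hg38 with Bowtie2, removed duplicates for H3K27ac and Rb (no such step was stated for CTCF), called H3K27ac peaks with HOMER and CTCF and Rb peaks with MACS2, and compared reads in peaks with DESeq2. Tool versions were not given in the sources used here.

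In the deposited tables, the authors' mean signal per peak is reads divided by size factors, averaged over 6 libraries. The deposited log2 fold change is senescent over non-senescent, the deposited score is that value over its standard error, and the deposited p-value and adjusted p-value come from the authors' Wald test (Benjamini-Hochberg over peaks, missing for 11972 CTCF peaks). These columns were used as deposited, since the tables hold no value per library and no model could be refitted. The deposited enhancer and Rb lists hold positions only. Library depth is unknown. The sum of the mean counts of all peaks was 19239499 (H3K27ac) and 6136424 (CTCF). Since size factors centre the peaks on no change, a shift of all peaks together cannot be seen.

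The study's thresholds were a fold change of 1.5 with an adjusted p under 0.05 (H3K27ac) or 0.2 (CTCF). Start sites and gene bodies were those of GENCODE 44, overlaps needed 1 bp, and coordinates are 1-based on hg38. The 24 chromosome names matched hg38 and 0 regions ran past a chromosome end. Intervals at 95% are normal intervals from the standard error, and differences between peaks combined both errors as if independent. Genes were named by rule: all 10 members, every member peak past the threshold, the peak with the highest mean in each class, genes sharing a promoter peak, the 5 lost and 5 gained origin genes with the smallest adjusted p (1 was gained), and the 3 nearest genes by pattern. Other genes and peaks were named after their values were seen, to show the range of a list or a neighbourhood. Analysis used Python 3.11.15 with pandas 2.3.3, SciPy 1.17.1 and pysam 0.24.0. The code of the Wald tests, the adjustment and the GC centring was run on simulated data. These were drawn with the deposited standard errors and so cannot show whether those errors are right. Alternatives changed the thresholds, the test, the promoter window, the assignment of peaks to genes, the count minimum and the GC centring.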

Additional observations from a re-analysis of the deposited data

How the results depend on the processing

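The count of 8 lost promoter peaks was 3 (MCM6, CDC6 and CDT1) with a fold change above 2 and 5 (MCM2, MCM5, MCM6, CDC6 and CDT1) under a Wald test against a fold change of 1.5. With start sites of all transcripts counted, the gained promoter peaks went from 0 to 1, because the MCM7 gene-body peak then counted as a promoter. The 1 gained peak outside promoters was 0 under a fold change above 2 and under the Wald test against 1.5. The 3 gained CTCF peaks were 0 under the Wald test against 1.5. For the other origin genes, the 5 lost peaks were 3 with a fold change above 2, 13 with no fold limit and 3 under the Wald test against 1.5. Their 1 gained peak was 0 with a fold change above 2, 5 with no fold limit, 0 under the Wald test against 1.5, 0 after GC centring and 2 with start sites of all transcripts. The other counts stayed within 1.5 times, and GC centring changed the direction or the call of none of the 10 promoters or 3 gained CTCF peaks. Shares of all peaks under these alternatives were not computed. No paired analysis was possible because the tables hold no values per library, and for the same reason no library could be left out in turn.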

Other observations

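CTCF peaks inside gene bodies were counted by the H3K27ac call of the gene's promoter. Of 1192 peaks in 490 genes with a lost promoter, 5.12% were gained and 4.61% were lost, against 3.03% and 2.39% of 9359 peaks in genes whose promoter was not called. The medians were 0.08 and 0.06. Peaks of 1 gene are not independent, the difference was not tested, and CDC6 and MCM10 are among the genes with lost promoters.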
